A study of Caenorhabditis elegans with 2 samples.

Results

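The nuclear hormone receptor family of Caenorhabditis elegans was examined for binding of LIN-29, the zinc finger protein with which the heterochronic (developmental timing) pathway ends and which lets epidermal cells pass from larval to adult fates. The family was taken as all protein-coding genes whose symbol begins with nhr-, apart from nhr-23, nhr-25, nhr-67 and nhr-85, which left 265 members among 19973 annotated protein-coding genes of WBcel235. All 265 were also found by symbol among the protein-coding genes of RefSeq. The other 19708 protein-coding genes, the 4 left out among them, served as the comparison.

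Chromatin immunoprecipitation with sequencing (ChIP-seq) recovers the DNA bound by a protein, here with an antibody against GFP from whole larvae in the L4 stage at 49 hours. The larvae, of strain RW12227 with the genotype st12227[lin-29::TY1::EGFP::3xFLAG] II, carried the tags in their own lin-29 gene, inserted by CRISPR, so that the fusion protein was made under the gene's own control. They had been hatched after bleaching and held as starved L1 larvae, so that they grew in step. The series holds 1 group of 2 biological replicates, with no untagged, mutant or other-stage group, and a possible control named in the labels was not analysed here. Whole animals mix all tissues, so the cells in which a site was bound cannot be told apart.

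Nuclear receptors are transcription factors with a zinc finger domain that contacts DNA and a second domain that in many members binds a small lipophilic molecule such as a sterol or a fatty acid. Nematodes have far more of these genes than insects or mammals, and most of the additional members descend from an ancestor related to the HNF4 receptors of vertebrates and lie in clusters on chromosome V. Known members regulate fat storage and oxidation, breakdown of propionate, responses to pathogens and toxins, moulting and dauer entry.

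A peak was assigned to a gene when its summit lay between 2000 bp upstream of the gene's 5′ end and its 3′ end. The deposited thresholded lists keep peaks with an irreproducible discovery rate (IDR), a measure of how poorly a peak's rank repeats between inputs, of at most 0.01. Overlapping peaks were merged and are called sites. All peaks of the deposited ranked lists, which hold those of the thresholded lists and many weaker ones, are called candidates. Unless another list is named, IDR values and counts of candidates are from the pooled ranked list. The pooled list, made from both replicates, held 906 peaks in 856 sites, and a second pooled list whose name calls it conservative held 802 sites. The replicates' own lists held 528 and 381 sites. No list gives read counts, so sequencing depth is unknown.

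Sites fell in the windows of 7 members in the pooled list, namely nhr-47, nhr-17, nhr-68, nhr-19, nhr-142, nhr-255 and nhr-27. The conservative list held the same 7 members and added nhr-141. The reference sequences at these 8 sites are shown because they carry the binding data of the family: 5 are marked for short words searched for around all sites, 2 run into a tRNA gene and 1 is a repeat. All are on the forward strand, from the RefSeq genome of WBcel235 (ce11). For nhr-47, nhr-68, nhr-19, nhr-142 and nhr-27 the capitals mark copies of ACGCAG, of the word GAGAGA, of the word ACGCGC and of the run AAAAAA, read on either strand. For nhr-17 and nhr-255 the capitals mark the tRNA gene, which at nhr-255 holds a copy of ACGCAG on the reverse strand, and for nhr-141 each copy of TACAGTA. For nhr-47 and nhr-68 the stretch shown ends at the gene's 5′ end and at that of the divergent neighbour H12C20.7, which leaves transcribed sequence out.
nhr-47, chrV:5505152-5505252: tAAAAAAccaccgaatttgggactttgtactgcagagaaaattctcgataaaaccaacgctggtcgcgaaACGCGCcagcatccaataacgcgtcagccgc
nhr-68, chrV:11572991-11573091: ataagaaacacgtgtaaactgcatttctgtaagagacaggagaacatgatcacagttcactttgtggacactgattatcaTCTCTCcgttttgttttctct
nhr-19, chrII:9603566-9603666: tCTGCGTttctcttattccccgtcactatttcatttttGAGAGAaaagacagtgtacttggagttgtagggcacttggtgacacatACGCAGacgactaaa
nhr-142, chrV:5791033-5791133: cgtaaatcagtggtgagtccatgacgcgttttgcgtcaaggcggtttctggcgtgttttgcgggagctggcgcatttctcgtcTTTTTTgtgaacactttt
nhr-17, chrX:12665152-12665311: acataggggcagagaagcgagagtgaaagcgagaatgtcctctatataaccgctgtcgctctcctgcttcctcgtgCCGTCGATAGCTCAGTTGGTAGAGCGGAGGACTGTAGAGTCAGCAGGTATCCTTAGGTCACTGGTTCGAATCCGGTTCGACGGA
nhr-255, chrX:15741959-15742133: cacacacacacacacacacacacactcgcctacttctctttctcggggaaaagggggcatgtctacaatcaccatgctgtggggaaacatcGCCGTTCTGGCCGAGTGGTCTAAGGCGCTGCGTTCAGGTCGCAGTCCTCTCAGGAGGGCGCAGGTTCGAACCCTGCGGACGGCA
nhr-141, chrV:7443636-7443736: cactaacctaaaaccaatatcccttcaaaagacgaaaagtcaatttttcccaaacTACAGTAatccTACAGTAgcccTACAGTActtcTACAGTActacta
nhr-27, chrX:12761457-12761557: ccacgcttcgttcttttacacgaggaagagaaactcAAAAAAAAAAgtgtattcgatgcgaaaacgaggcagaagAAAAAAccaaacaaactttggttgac

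The highest signal among the members was at nhr-47 (WBGene00003637, chrV:5505253-5509956, forward strand). Signal is a value that the authors' peak caller gave each peak, on a scale that is not stated, so it was compared within a list only. The site, chrV:5505121-5505410, had its summit 13 bp inside the gene, in the 5′ UTR, and 409 bp upstream of the 5′ end of dnj-19, a DnaJ chaperone gene on the other strand. Its signal was 124 in the pooled list, 66.6 in replicate 1 and 59.5 in replicate 2, and its IDR was at most 0.000892 in all 4 lists. By signal it ranked 184 among the 65474 pooled candidates, and the highest site of any gene reached 625.

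At nhr-17 (WBGene00003616, chrX:12663837-12667854, reverse strand) the site chrX:12665057-12665346 lay in an intron, 2652 bp inside the gene. Signal was 103 in the pooled list, 47.4 in replicate 1 and 60.1 in replicate 2, and the site passed the threshold in all 4 lists. nhr-47 and nhr-17 were the 2 members of which this held. The summit was 26 bp from a tRNA-Tyr gene, C02B4.t2 (chrX:12665228-12665311), which stands inside the intron, and 1299 bp upstream of nlp-76, a neuropeptide-like protein gene. Only 75.3% of the 36-base words of the site occur once in the genome. Reads that match several places can be placed wrongly or lost, and the handling of such reads was not given in the sources used here; their part in this signal was not tested.

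A second site beside a tRNA gene was that of nhr-255 (WBGene00014068, chrX:15742610-15744298, forward strand). The site chrX:15741864-15742153 had its summit 601 bp upstream of the gene and 41 bp from the tRNA-Leu gene ZK678.t1 (chrX:15742050-15742133). Signal was 74.1 in the pooled list, 28.4 in replicate 1 and 48.3 in replicate 2. The IDR was 0.00224 in replicate 2 but 0.285 in replicate 1, so this site passed in the pooled lists and in replicate 2. The next 5′ end, at 1383 bp, was that of srg-64, a chemoreceptor gene of the srg class. Here 78.0% of the 36-base words were single-copy.

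nhr-68 (WBGene00003658, chrV:11573440-11575709, forward strand) acts with nhr-10 in the transcriptional switch that turns on the propionate shunt, the pathway used when vitamin B12 is scarce. Its site, chrV:11572870-11573159, had its summit 425 bp upstream of nhr-68 and 25 bp upstream of the gene H12C20.7 on the other strand. The 3′ end of another member, nhr-101, lay within 500 bp of the summit on the far side. Signal was 92.7 in the pooled list, 61.1 in replicate 1 and 30.1 in replicate 2. The site passed in replicate 1, with an IDR of 0.000477, and not in replicate 2, where the IDR was 0.684. The member that works with it, nhr-10, had no site: the best of its 3 candidates had an IDR of 0.519.

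In nhr-19 (WBGene00003618, chrII:9598180-9605526, reverse strand) the site chrII:9603471-9603760 lay in an intron 1910 bp from the 5′ end. Signal was 89.5 in the pooled list, 62.1 in replicate 1 and 31.9 in replicate 2, with IDR values of 0.000609, 0.000552 and 0.0439. This summit was in the window of no other protein-coding gene, which held for no other pooled site of the family. It was also the member site with the word ACGCAG within 50 bp of the summit, in 2 copies, beside a copy of GAGAGA.

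At nhr-142 (WBGene00018430, chrV:5785957-5790553, reverse strand) the site chrV:5790938-5791227 had its summit 530 bp upstream of the gene and 147 bp upstream of F44E7.9, which RefSeq calls a Rab5-interacting protein gene. Signal was 79.8 in the pooled list, 38.5 in replicate 1 and 34.9 in replicate 2. Neither replicate's own list kept it, since the IDR was 0.332 in replicate 1 and 0.0117 in replicate 2. By percentile of signal within each replicate's ranked list, nhr-142 stood at 98.3 in replicate 1 and 98.7 in replicate 2. The percentiles were higher in replicate 1 for nhr-68 (99.4 and 97.8) and nhr-19 (99.4 and 98.3). That of nhr-255 was higher in replicate 2 (95.2 and 99.4).

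The lowest pooled signal of the 7 was in nhr-27 (WBGene00008901, chrX:12705563-12808318, reverse strand). This gene spans 102756 bp and held 77 candidates, more than any other member. Its site, chrX:12761362-12761853, made of 2 merged peaks, lay in an intron 46811 bp from the 5′ end of nhr-27 but 571 bp upstream of cept-1, a choline phosphotransferase gene of membrane lipid synthesis nested on the other strand. Signal was 63.4 in the pooled list, 35.3 in replicate 1 and 25.4 in replicate 2, with a pooled IDR of 0.00805, close to the threshold.

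nhr-141 (WBGene00017787, chrV:7444661-7446833, forward strand) had its site, chrV:7443541-7443830, in the conservative list with an IDR of 0.00237, whereas the same region had an IDR of 0.107 in the pooled ranked list. Signal was 64.3 in both, 44.3 in replicate 1 and 29.6 in replicate 2. The summit lay 975 bp upstream of the gene in sequence that repeats TACAGTA 4 times. Only 11.4% of its 36-base words were single-copy, the lowest value among the 8 sites. The value was 100% at nhr-47, nhr-68, nhr-19, nhr-142 and nhr-27. The part of repeated sequence in the nhr-141 signal was not tested.

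**Figure D1:**
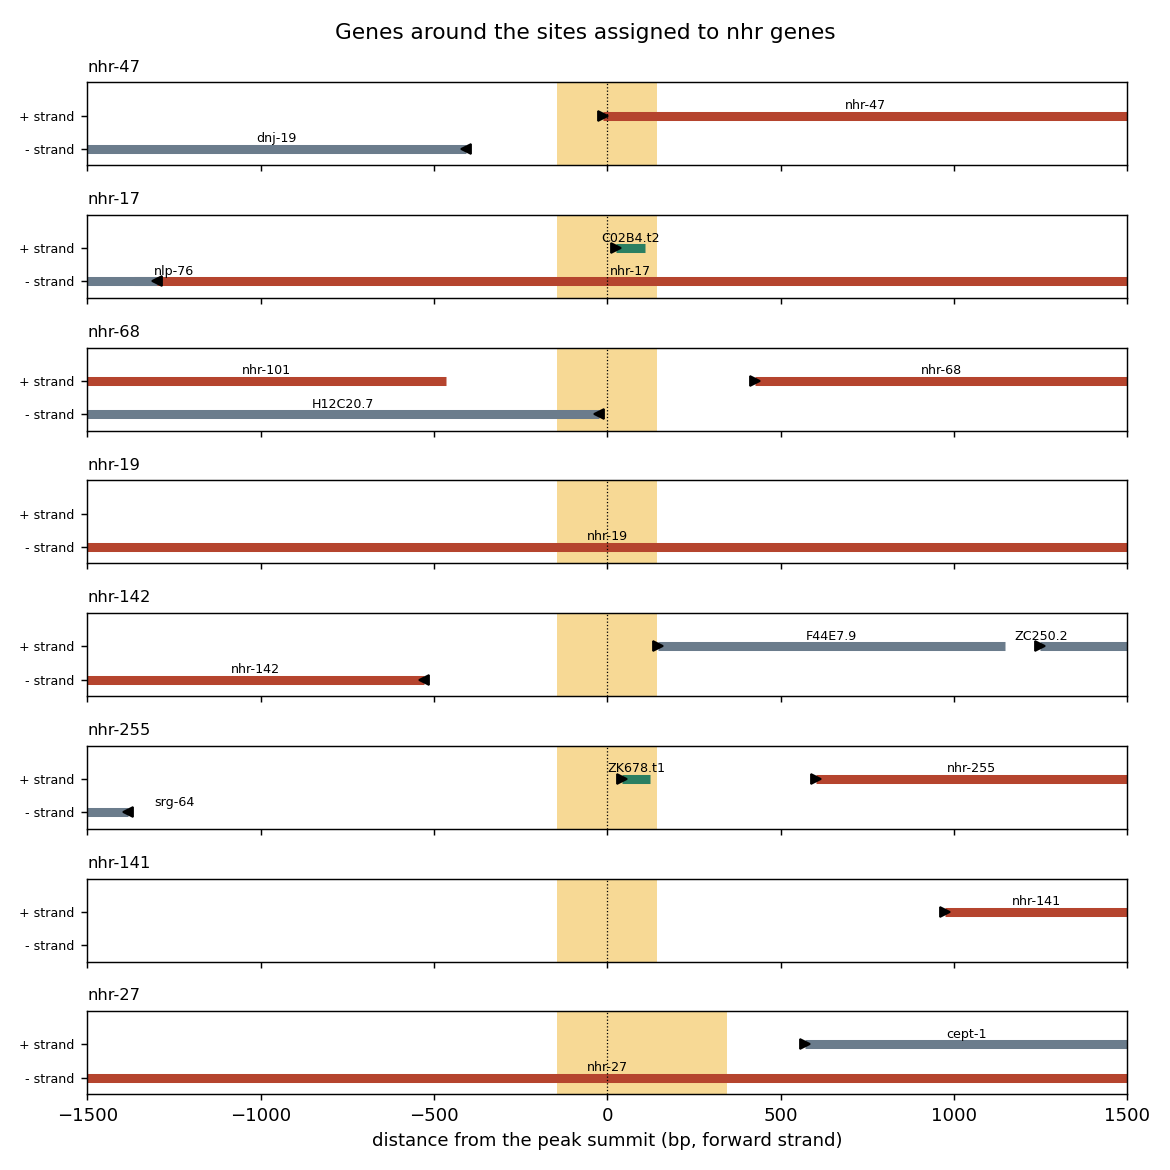
Genes within 1500 bp of the summit (dotted line, at 0 on the horizontal axis, in bp along the forward strand) for the 8 sites assigned to members. Red bars are nhr genes, grey bars other protein-coding genes and green bars tRNA genes, black arrowheads mark 5′ ends and the shaded band is the site; the summit is 13 bp inside nhr-47, in an intron of nhr-17, nhr-19 and nhr-27, and beside a tRNA gene at nhr-17 and nhr-255.

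All 8 regions were picked for passing the threshold of a pooled list, so a high place by pooled signal was largely set by that choice. Within the ranked lists they stood from percentile 98.8 to 99.7 of signal in the pooled list. In replicate 1 the range was 95.2, at nhr-255, to 99.5, and in replicate 2 it was 95.5, at nhr-27, to 99.6. The candidates missed the IDR threshold in at least 1 replicate's own list for 6 of the 8 members. The replicates' own lists are shorter for all genes, with 528 and 381 sites against 856 in the pooled list. The same share over all pooled sites was not counted. As a group, the 7 pooled member sites had a median signal of 89.5, with a range of 63.4 to 124, and the other 849 sites had a median of 79.8, with a range of 6.74 to 625. The member values lay inside the range of the rest. Median GC content within 50 bp of the summit was 49.5% at the member sites and 49.5% at all pooled sites.

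**Figure D2:**
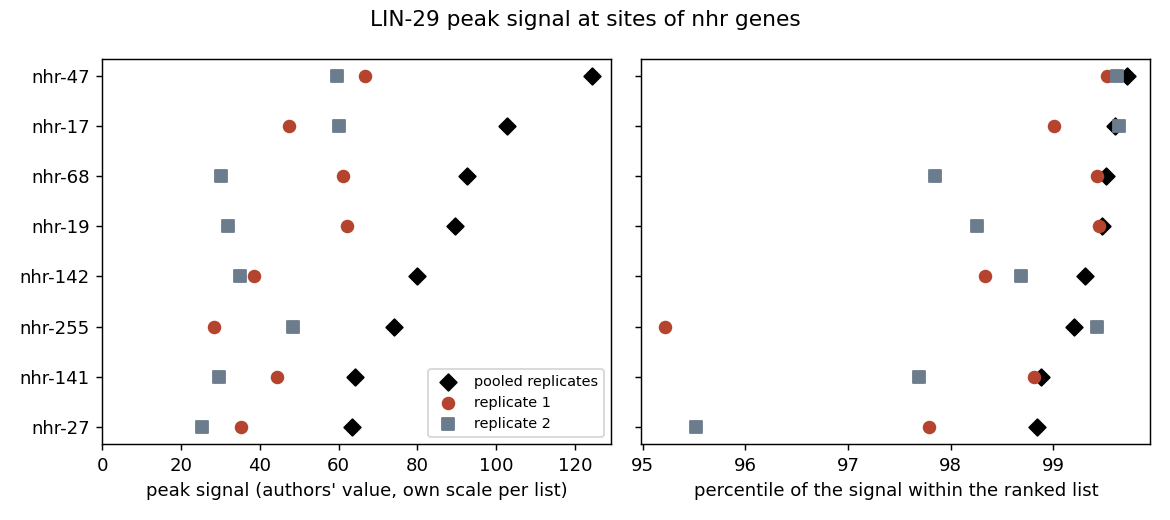
Peak signal (left, in the authors' units, on its own scale for each list) and its percentile within the ranked list (right) at the 8 member sites, with diamonds for the pooled replicates, circles for replicate 1 and squares for replicate 2. The pooled signals run from 63.4 at nhr-27 to 124 at nhr-47, and the percentile of replicate 1 is lowest at nhr-255, at 95.2.

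Most of the member sites were shared with other genes. Of the 7 pooled member sites, 6 lay also in the window of a neighbour, and the member's own 5′ end was the nearest to the summit at nhr-47, nhr-19 and nhr-255. The same shares over the other 849 pooled sites were not counted, so neither is shown to be particular to the family. The distances to the nearest 5′ end of another gene were 25 bp at nhr-68, 147 bp at nhr-142, 571 bp at nhr-27 and 1299 bp at nhr-17. A summit between divergent genes does not show which of the genes, if any, it acts on.

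When each site was instead given to the gene with the nearest 5′ end, 4 other members gained a site outside their windows. These were noticed after the values were seen. A site 2545 bp upstream of nhr-88 on chromosome II (chrII:2973949-2974238) had a pooled signal of 209, above that of all 7 assigned sites. Another, 2771 bp upstream of nhr-277 on chromosome IV (chrIV:2740078-2740367), had a signal of 121. The summit 2112 bp upstream of nhr-34 on chromosome IV (chrIV:9677639-9677928), with a signal of 66.2, missed the 2000 bp limit narrowly. The site past the 3′ end of nhr-114 (chrV:4190286-4190575), with a signal of 75.7, lay inside Y45G5AM.9.

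Members with a site made up 7 of 265, or 2.64% (95% Wilson interval 1.29 to 5.35%), against 4.63% of the other protein-coding genes (913 of 19708). The ratio of the shares was 0.570, with an interval of 0.274 to 1.19 that includes equality. In the conservative list 8 members (3.02%) had a site, against 4.41% of other genes. In replicate 1's own list it was 4 members (1.51%) against 2.96%, and in replicate 2's it was 3 members (1.13%) against 2.23%. The member share was thus below the background in all 4 lists, and the lists share their reads. Intervals of shares cover counting error over genes, and genes that share a site or a cluster are not independent; no test was made, since the series has a single group.

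With a looser limit the difference was smaller. A candidate with an IDR of 0.05 or less was found for 18 members, or 6.79% (4.34 to 10.5%), against 7.60% of other genes. The conservative ranked list gave 16 members (6.04%) against 7.44%, replicate 1's gave 11 (4.15%) against 4.63%, and replicate 2's gave 6 (2.26%) against 3.37%. Any candidate at all was found for 214 members, or 80.8%, against 82.0% of other genes. In the conservative ranked list it was 212 members against 81.9% of other genes, in replicate 1's it was 75.8% of members against 77.7%, and in replicate 2's it was 79.2% against 81.1%. Candidates per kb of window were 0.688 for members and 0.683 for the rest, and the median window was 4.28 kb and 4.02 kb. Of genes with a candidate, 3.27% of members and 5.65% of others had a site. Hence the members' windows held candidates about as densely as those of other genes, and the shares parted at the strong end of the score.

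**Figure D3:**
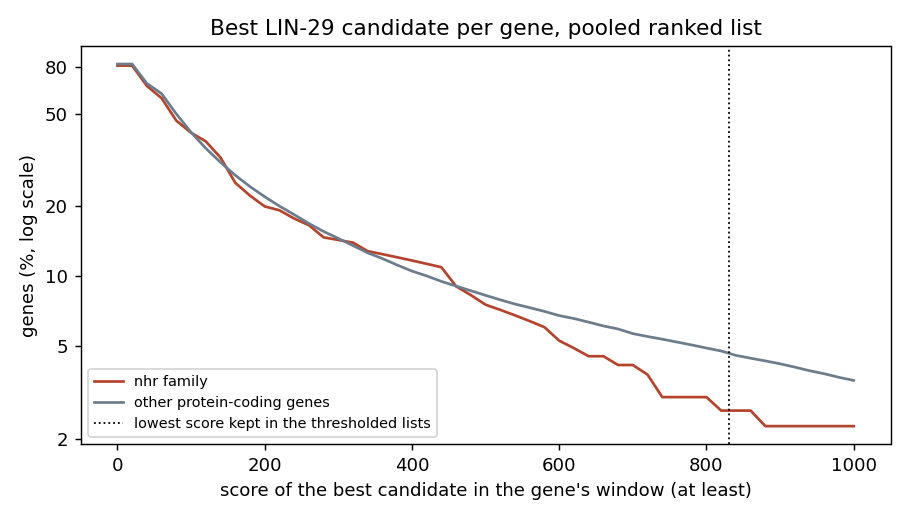
Percent of genes (log scale) whose best pooled candidate reached at least the score on the horizontal axis; the deposited score rises to 1000 as the IDR falls, and the dotted line marks 830, the lowest score kept. The red line is the nhr family and the grey line the other protein-coding genes; they start at 80.8% and 82.0%, run close together and separate above a score of about 460, where they stood at 9.06% and 9.08%.

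The best score of members with a candidate had a median of 108.5, with quartiles of 55 and 192.5, and that of other genes had a median of 101, with quartiles of 59 and 215. The median was above that of other genes in the pooled list and below it in the conservative ranked list, 90 against 100. The best signal had a median of 26.2 in members and 27.5 in others. No candidate was found in the pooled ranked list for 51 of 265 members and 3538 of 19708 other genes. A lone candidate was found for 26 members and 2453 other genes, and 10 or more for 17 and 1126. In none of the 4 ranked lists was a candidate found for 22 members, and other genes were not counted so.

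Candidates themselves looked much the same in and outside the family. The 917 distinct candidates in member windows had a median signal of 20.5, as had the 54587 that lay in windows of other genes only. An IDR of 0.05 or less was reached by 2.51% and 2.46% of them. A candidate summit within 100 bp was present in both replicates' ranked lists for 20.6% in member windows and 18.8% elsewhere, and in neither for 32.3% and 31.4%. In member windows 38.2% lay in introns, 29.6% in coding exons and 20.4% in promoters, taken as 1000 bp upstream of any protein-coding 5′ end; the values elsewhere were 35.0%, 32.6% and 20.8%.

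Of 7 members listed here from subfamilies that are conserved across animals, none had a site (4.63% of other genes). The list was drawn from the family only, so nhr-23, nhr-25, nhr-67 and nhr-85, kept out of the family, were not in it. Among those, nhr-23 and nhr-85 each had a pooled site. The result therefore holds for the listed genes and not for conserved receptors as a class. A candidate with an IDR of 0.05 or less was found for 3 of the 7 (7.60% of other genes), and in the conservative ranked list for none of them. In the pooled ranked list the member nearest to the threshold without a pooled or conservative site was nhr-91, a relative of the vertebrate germ cell nuclear factor, with a candidate in an intron 970 bp from its 5′ end. Its pooled IDR was 0.0117, against 0.0591 in the conservative ranked list, where nhr-14 was nearest at 0.0150, and its signal 60.3 in the pooled list, 39.4 in replicate 1 and 19.2 in replicate 2. nhr-48, a relative of the dafachronic acid receptor DAF-12, had a candidate 501 bp upstream with an IDR of 0.0256 and a signal of 43.2. For nhr-239 the candidate lay 242 bp inside the gene, with an IDR of 0.0332 and a signal of 47.2. nhr-41, a relative of the vertebrate testicular receptors, reached 0.0850, and nhr-111 reached 0.0773. nhr-6, the worm's NR4A receptor, needed for the spermatheca, reached 0.357, and nhr-8, which acts in cholesterol balance and toxin resistance, reached 0.550. The median best score of the list was 461.

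None of 8 regulators of fat and energy metabolism had a site (4.63% of other genes), and none had a pooled candidate with an IDR of 0.05 or less (7.60%), although nhr-49 passed that limit in the conservative ranked list at 0.0307 and in replicate 1. nhr-49, which promotes fatty acid oxidation and desaturation, came closest, with a candidate 219 bp upstream at an IDR of 0.0525 and a pooled signal of 56.5. Its best IDR was 0.0467 in replicate 1 and 0.303 in replicate 2. Its partner receptors were further off: nhr-66 had a best IDR of 0.228, nhr-13 of 0.733 and nhr-80, which promotes oleic acid synthesis, of 0.876. nhr-62, required for long life under dietary restriction, had 0.376. nhr-69, nhr-76 and nhr-64 ranged from 0.378 to 0.702. The median best score of these 8 was 138.5, against 101 over other genes with a candidate.

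Among 9 members that respond to nutrients, pathogens or toxins, nhr-68 had the site described above (4.63% of other genes) and 3 had an IDR of 0.05 or less, nhr-68 included (7.60%). In the conservative ranked list it was 2, without nhr-114. nhr-14, which acts in iron uptake and the response to pathogens, had a candidate 1500 bp upstream with an IDR of 0.0182; its signal was 54.2 in the pooled list, 28.8 in replicate 1 and 26.0 in replicate 2. nhr-114, which protects against toxic dietary metabolites, had a candidate in an intron at 699 bp with an IDR of 0.0482 and a signal of 45.3. nhr-57, a target of the hypoxia factor HIF-1, had one 117 bp upstream with an IDR of 0.0823. The remaining 5, nhr-28, nhr-45, nhr-86, nhr-10 and nhr-176, ranged from 0.120 to 0.622. The candidate of nhr-45 had a signal of 5.90 despite a score of 332, so score and signal did not always go together.

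Of 4 members known from embryo and muscle development, none had a site (4.63% of other genes) and 2 had an IDR of 0.05 or less (7.60%), in the conservative ranked list too. With lists this short, such counts say little of the list. nhr-40, needed for embryonic and muscle development, had a candidate 933 bp upstream with an IDR of 0.0382 and a signal of 50.8, and 20 candidates in all. nhr-1 had one 400 bp upstream with an IDR of 0.0375; its signal was 52.7 in the pooled list, 33.9 in replicate 1 and 20.4 in replicate 2. nhr-60 and nhr-2, both of embryonic development, reached 0.501 and 0.629.

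The other members just outside the threshold have no role given here. nhr-46 had an intronic candidate with an IDR of 0.0170 and a signal of 56.99, nhr-70 an intronic one with 0.0197 and 49.2, and nhr-88 an intronic one with 0.0427 and 42.7. nhr-21 had an IDR of 0.0319 with a pooled signal of only 20.2, and no candidate of either replicate lay within 100 bp. The members with the most candidates on each chromosome were nhr-49 with 9 on I, nhr-21 with 19 on II, nhr-6 with 6 on III, nhr-66 and nhr-41 with 18 each on IV, nhr-65 and nhr-15 with 11 each on V and nhr-27 with 77 on X. Among these only nhr-27, in the longest window, had a site.

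None of 15 genes that work with the receptors, or are receptors of other names, had a site, and 2 reached an IDR of 0.05 or less, counts near the shares of other genes of 4.63% and 7.60%. din-1, a corepressor of DAF-12, had a candidate with an IDR of 0.0177 and a signal of 51.7. daf-12, which lacks the nhr prefix, had an IDR of 0.0331 at a signal of 3.14. mdt-15, the Mediator subunit that serves NHR-49, had 0.0708. The desaturase genes fat-5, fat-6 and fat-7 and the acyl-CoA synthetase gene acs-2, all targets of NHR-49, ranged from 0.432 to 0.876. daf-36, which makes a dafachronic acid precursor, had no pooled candidate. Of the 4 nhr genes kept out of the family here, nhr-23 and nhr-85 each had a pooled site, with signals of 65.6 and 71.6, and nhr-25 and nhr-67 had none.

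The family is spread unevenly over the genome. Chromosome V held 167 members, 63.0% of the family, against 24.5% of other genes, and 3 of the 167 had a site (1.80%, 0.613 to 5.15%), against 3.09% of other genes of V. On X 3 of 22 members had a site (13.6%, 4.75 to 33.3%), against 4.58%. On II it was 1 of 15 (6.67%), also above the 4.40% of other genes. None was found among 21 members on I, 8 on III and 32 on IV, where the shares of other genes were 6.76%, 6.34% and 3.97%. Outside V the share was 4.08% (4 of 98) against 5.13%. The members on V were below the other genes on V, and so were the members outside V below theirs, with intervals that overlap.

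**Figure D4:**
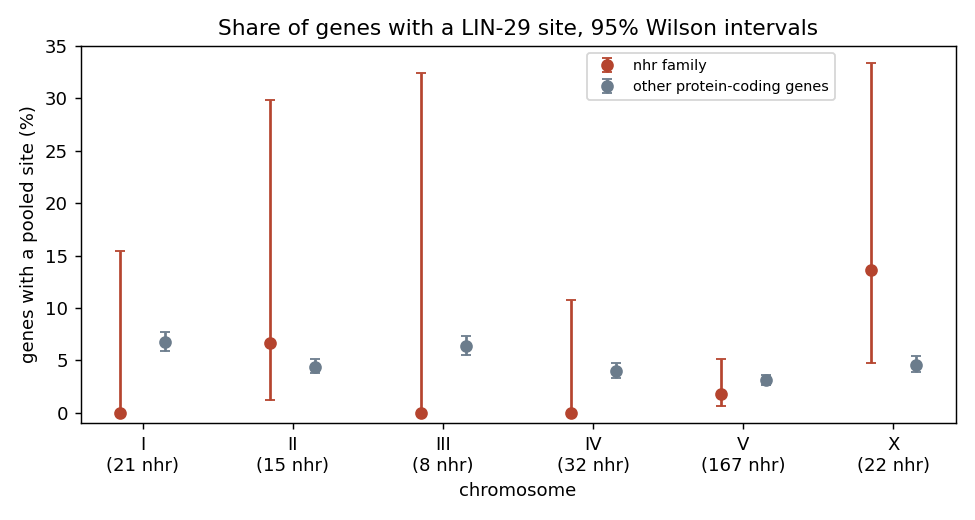
Percent of genes with a pooled site on each chromosome, for nhr genes (red) and other protein-coding genes (grey), with 95% Wilson intervals as bars and the number of nhr genes under each name. Members on X stand at 13.6% and those on V at 1.80%, and the bars of chromosomes with few members are wide.

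Members on X stood apart at the looser limit too. An IDR of 0.05 or less was reached by 8 of 22 (36.4%), against 7.57% of the other X genes. These 8 are nhr-17, nhr-255, nhr-27, nhr-91, nhr-14, nhr-48, nhr-1 and nhr-40. In the conservative ranked list 6 of the 22 reached the limit, without nhr-91 and nhr-48. In replicate 1's ranked list nhr-17, nhr-27, nhr-91 and also nhr-3 did, and in replicate 2's nhr-17 and nhr-255. The sites of nhr-17 and nhr-255 lie beside tRNA genes, and that of nhr-27 is nearer to cept-1. The windows of nhr-27, nhr-48, nhr-1 and nhr-40 exceed 10 kb, so these genes also enter the counts by window length below. Members on X had a median window of 6.40 kb, against 4.53 kb for other X genes, and a median best score of 425 against 107. On V 5 of 167 members (2.99%) reached that limit, against 5.39%.

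The window length moved with these counts. Of 182 members with windows over 3 and up to 5 kb, 2 had a site (1.10%, 0.302 to 3.92%), against 3.33% of other genes. Of 67 with windows over 5 and up to 10 kb it was 4 (5.97%) against 6.37%, and of 11 above 10 kb it was 1 (9.09%) against 10.2%. None of 5 members with shorter windows had one. At the IDR limit of 0.05, members with windows over 3 and up to 5 kb were also below other genes, 2.20% against 5.80%. Among the 11 longest, 7 had a candidate with an IDR of 0.05 or less (63.6%), against 16.4% of other genes of that length. Thus 182 of 265 members fell in the class where the shares with a site differed by about 2 percentage points. In longer windows the shares with a site were close, with 1 member above 10 kb that had one. At the looser limit the members above 10 kb stood higher than other genes, 63.6% against 16.4%.

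By the order of 5′ ends, members next to another member had no sites. A member was counted so when the nearest protein-coding gene on either side, in the order of 5′ ends, was also a member; this split was chosen after the data were seen. Of 136 such members (51.3%) none had a pooled site, for which the Wilson interval reaches 2.75%, and none had a pooled candidate with an IDR of 0.05 or less. In replicate 2's ranked list 1 of them, nhr-65, did, at 0.0182. Of the 129 others, 7 had a site (5.43%, 2.65 to 10.8%) and 18 reached that limit (13.95%). The same split held on V, with 0 of 107 and 3 of 60 members, and on the other chromosomes, with 0 of 29 and 4 of 69. Candidates per kb were 0.549 for members next to another and 0.790 for the rest. Their median windows were 4.15 kb and 4.65 kb. On V these were 4.15 kb and 4.09 kb, and on the other chromosomes 4.25 kb and 5.60 kb. The part of window length in this split was not tested. Other genes next to a member had a site in 10 of 330 cases (3.03%), against 4.66% of other genes elsewhere. On V it was 5 of 174 (2.87%) against 3.09%, which is close, and on the other chromosomes 5 of 156 (3.21%) against 5.15%. The count of 0 depends on how neighbours are defined. The body of nhr-27, which has a site, ends 742 bp from the member nhr-272, and genes nested in nhr-27, such as cept-1, separate them in the order of 5′ ends. Taking neighbours by the ends of gene bodies, 1 of 137 members next to another had a site (0.730%, 0.129 to 4.02%), namely nhr-27, against 6 of 128 (4.69%, 2.17 to 9.85%). At nhr-68, H12C20.7 alone separates it from nhr-101.

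**Figure D5:**
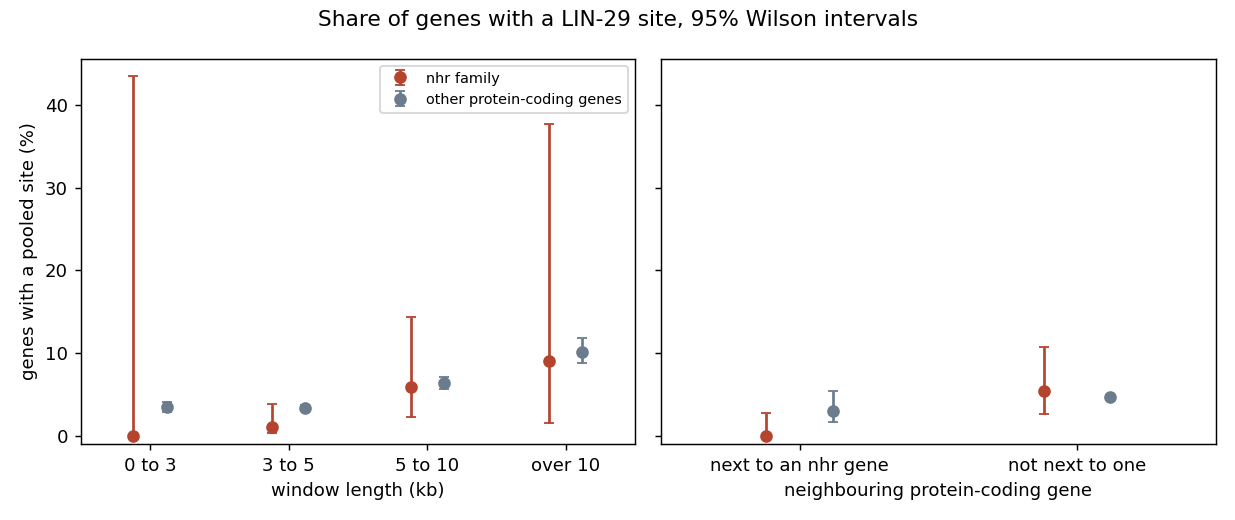
Percent of genes with a pooled site by window length (left, in kb) and by whether the neighbouring protein-coding gene is an nhr gene (right), for nhr genes (red) and other protein-coding genes (grey), with 95% Wilson intervals as bars. By the order of 5′ ends none of the 136 members next to another member had a site, against 5.43% of the members elsewhere.

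Medians of repeated sequence were close in these groups. The median share of single-copy 36-base words in the window was 99.5% for members next to another member, 99.7% for the rest, and 99.5% for other genes. Outside V the members next to another had a lower quartile of 68.8%, against 96.4% for the other members there, and the part of this in their count of 0 of 29 was not tested. Among genes with more than 99% of single-copy words, 5 of 159 members had a site (3.14%) against 4.34% of other genes. By position on the autosomes, 2 of 173 members in the arms had a site (1.16%) against 4.58% of other genes there, and 2 of 70 in the middle 40% of each chromosome (2.86%) against 4.71%. On V the arms held 125 members, with a share of 1.60% against 2.34%, and the middle 42, with 2.38% against 4.07%.

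Short words taken from earlier results of these data were sought within 50 bp of each summit on both strands. ACGCAG was present at 17.2% of the 856 pooled sites, against 3.07% of all candidates, and, among the 7 member sites, at nhr-19. GAGAGA was present at 21.96% of sites, against 6.95% of candidates, and at nhr-47 and nhr-19. ACGCGC was present at 12.5% of sites, against 2.13% of candidates, and at nhr-47. The word GCGCGC was present at 9.23%, against 1.26%, and at no pooled member site. AAAAAA was less common at sites, 24.3% against 31.4% of candidates, and was present at nhr-142 and nhr-27. The copy of GAGAGA shown above for nhr-68, the ACGCAG in the tRNA gene by nhr-255 and the run AAAAAA shown for nhr-47 lie more than 50 bp from the summit, and the GAGAGA of nhr-47 lies past the stretch shown. The words are 6 bases long and can overlap each other, as ACGCGC and GCGCGC do. A match describes the sequence only. Since the words came from these data, the differences between sites and candidates are no independent result. Median GC content was 49.5% at pooled sites. It was 38.6% at candidates in member windows and 40.6% at those in windows of other genes only. The part of GC content in the shares of words was not tested.

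Promoters of members, from 250 bases before to 50 after the 5′ end, held ACGCAG in 39 of 265 cases (14.7%, 11.0 to 19.5%), against 8.15% of other genes' promoters (7.78 to 8.54%). GAGAGA was present in 81 (30.6%, 25.3 to 36.4%), against 21.7%. The GC-rich words were rarer in members, ACGCGC at 3.40% against 5.96% and GCGCGC at 1.13% against 3.62%, and AAAAAA was present in 75.8% against 80.2%. The median GC content of these promoters was 34.2% in both sets. Members thus held ACGCAG and GAGAGA in a larger share of promoters than other genes did. They held GCGCGC in a smaller share (0.386 to 3.27%, against 3.37 to 3.89%). Intervals do not overlap for these words, but related promoters of a cluster are not independent. For ACGCGC and AAAAAA the intervals overlap. Members held sites in a smaller share of windows, with an interval of the ratio that includes equality. Around candidates in member windows ACGCAG was present at 4.58% (3.41 to 6.13%), against 3.01% elsewhere, and GAGAGA at 7.31% against 6.73%. The GC-rich words went the other way there, ACGCGC at 0.872% (0.443 to 1.71%) against 2.17% and GCGCGC at 0.654% against 1.25%. AAAAAA was present at 33.8% against 30.6%. TACAGTA, the word repeated at nhr-141, was present in 5.66% of member promoters and 5.45% of others, and at 1.40% of pooled sites; it was sought after the data were seen.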

How the data were processed

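The authors deposited 8 peak lists in ce11, which names the assembly WBcel235: a ranked and a thresholded list for each replicate from its own alignments, and 2 of each from both replicates, per the file headers of the manifests. A further input of unstated role was used. The names of aligner and peak caller were not given in the sources used here. Each peak has a deposited score (up to 1000), a deposited signal of unstated scaling and, in the ranked lists, the authors' −log10 of the IDR. From the values, a score of 830 stands for an IDR of 0.01. The lists carry no read counts, so the depth is unknown and no precision can be set from it.

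Peaks overlapping by 1 bp or more were merged, keeping the strongest summit. Gene models came from Ensembl release 115 and sequence from RefSeq, both WBcel235. Coordinates are 1-based. Work was done in Python 3.11.15 with pandas 2.3.3, NumPy 2.4.6 and statsmodels 0.14.6 (Wilson intervals); the interval of the ratio is a normal one on its log. Assignment was tested on simulated data. The members and all lists, words and splits were chosen with earlier results of these data known. Named were every member with a site in any thresholded list, the 10 others with the highest pooled score, the member with most candidates on each chromosome and up to 3 of the highest score in each role list; other members of the role lists are given with them. Alternatives changed the list, threshold, window, assignment rule, merging and chromosomes, and left out small RNA genes or a replicate. Since the design has 1 group, no test between conditions was possible.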

Additional observations from a re-analysis of the deposited data

How the results depend on the processing

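The ratio of the share of members with a site to that of other genes stayed below 1 in all 15 settings, the reported one included, from 0.360 to 0.897, and was 0.491 without nhr-27, a setting added after the data were seen, which gave 6 members. With an IDR limit of 0.05, 18 members (6.79%) and 7.58% of other genes had a site. Sites at or above the median pooled signal gave 4 members and 2.56% of others. A limit of 1000 bp upstream gave 7 members and 3.78% of others, 500 bp to either side of the 5′ end gave 2 members (0.755%) and 2.10%, the nearest 5′ end alone gave 7 and 3.90%, and leaving out sites within 500 bp of tRNA, snoRNA and snRNA genes gave 5 and 3.73%. On V alone it was 3 members and 3.09% of others, and outside V 4 and 5.13%. Each replicate's own list gave 3 to 4 members (1.13 to 1.51%) and 2.23 to 2.96% of others. With the 4 kept-out genes 9 of 269 genes had a site (3.35%), against 4.62% of others.

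Members with a candidate numbered 132 of 167 on V (79.0%, against 74.4% of other genes) and 82 of 98 outside V (83.7% against 84.5%). Within 500 bp of the 5′ end they numbered 119 of 265, and other genes were not counted so. The members' median best score was 90 in the conservative ranked list, 85.5 with 1000 bp upstream and 58 within 500 bp of the 5′ end. It was 79.5 on V, 135 outside V and 40.5 to 52 in the replicates' own lists. For other genes it was 61 within 500 bp, 88 on V and 42 to 56 in the replicates' lists, and 100, 92 and 107 in the conservative list, with 1000 bp upstream and outside V. The members' median was above that of other genes in the pooled list and outside V, and below it in the other settings. Candidates per kb were 0.672 in the conservative list, 0.699 with 1000 bp upstream, 0.633 within 500 bp, 0.604 on V, 0.780 outside V and 0.467 to 0.475 in the replicates' lists. Fewer sites, genes or bases enter the settings that narrow a list, a window or a chromosome. The cause of the shifts between settings was not tested. The count of members next to another with a site was 0 by 5′ ends and 1 by gene bodies, a rule added after the data were seen. No paired analysis was possible because the series has 1 group.

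With a site in the windows of 7 members, leaving out 1 gene moves the share from 2.64% to 2.27%, and the interval of the ratio includes 1. Neither depth nor the input's role is known, and the 4 lists share reads.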
